A study of Mus musculus with 6 samples.

Results

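The testis-specific serine kinases (TSSKs) are described here through 5 genes, *Tssk1*, *Tssk2*, *Tssk3*, *Tssk4* and *Tssk6*, which were chosen by gene name and are 5 of the 54532 genes in the table. The study asked what the splicing factor SRSF1 does in male meiosis, and measured RNA by sequencing in 6 libraries of mouse testis germ cells that the labels call STRA8+ cells. The 3 Control libraries have the genotype Cre, and the 3 cKO libraries have the genotype *Srsf1* knockout, made by conditional knockout. The Cre driver, the floxed allele, the strain, the age of the mice and the way the cells were isolated are not given in the sources used here. The sources also do not say that each library came from its own mouse, so the p-values measure the spread between these libraries, which may be technical.

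TSSKs are a small family of protein kinases within the calcium/calmodulin-dependent kinase branch, related to AMP-activated kinase, and their genes are transcribed almost only in the testis. Their mRNAs appear late in spermatogenesis, in spermatids, after the meiotic divisions, and the proteins act while the round spermatid is reshaped into a sperm. TSSK1 and TSSK2 bind and phosphorylate the testis-specific kinase substrate TSKS, and mouse males that lack both are infertile. TSSK6 acts in chromatin condensation, and males without it are infertile too.

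Levels are given as FPKM, which counts the fragments of a gene relative to its length in kilobases and to the size of its library. Values of single libraries are given in the order of their replicate numbers, 1 to 3. The FPKM of each library fell on whole multiples of 1 fragment (within 0.1 of a multiple for 100% of values), which gave 16962222, 15364511 and 17310353 fragments in Control replicates 1 to 3 and 15326722, 14751933 and 14447887 in cKO replicates 1 to 3. The library size used in the FPKM was from 0.971 (Control replicate 1) to 1.052 (cKO replicate 3) times these totals. *Srsf1*, the targeted gene, read 84.7, 45.2 and 51.9 FPKM in Control (replicates 1 to 3), and the cKO libraries gave 5.08, 4.94 and 5.17 FPKM. The library groups did not overlap, in the direction the labels give, and the log2 fold change was -3.29 (SE 0.22, limma adjusted p = 5.65e-05). Throughout, a log2 fold change is cKO against Control on the scale of log2(FPKM + 1), which understates the change of genes near 0, and the adjusted p is from limma with Benjamini-Hochberg adjustment over the 15451 genes whose levels average 1 FPKM or more.

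The 5 TSSK genes were all lower in cKO. Each passed the threshold of an adjusted p of at most 0.05 in that direction, where 22.2% of the genes tested did so (3437 of 15451), and 11.8% (1821 genes) passed it in the other direction. Those shares depended on the settings, and quantile normalization called 2527 genes lower and 5164 higher. For each of the 5, all cKO libraries lay below all Control libraries, as they did for 28.6% of the genes tested. All 5 met the minimum of 1 FPKM, but *Tssk1*, *Tssk2* and *Tssk4* averaged below 1 FPKM in cKO and met it only through the Control libraries, so a gene of this kind could enter the test only if it was lower in cKO. In bulk RNA, fewer cells of a type and less RNA per cell cannot be told apart. On a scale without the added 1 FPKM the differences were larger, and limma-voom on the recovered fragments gave log2 fold changes of -3.80 for *Tssk1*, -6.33 for *Tssk2*, -3.64 for *Tssk6*, -4.26 for *Tssk3* and -3.89 for *Tssk4*.

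*Tssk1* and *Tssk2*, the pair of kinases that bind TSKS, lie side by side on the plus strand of chromosome 16. *Tssk1* (ENSMUSG00000041566, chr16:17894223-17897922, mm10, 1 exon) read 9.14, 26.4 and 10.5 FPKM in Control (replicates 1 to 3), and the cKO libraries gave 0.929, 1.02 and 0.836 FPKM. These levels rest on 557, 1495 and 669 fragments in Control and on 54, 55 and 47 in cKO. Control replicate 2 stood above the other Control libraries, the cKO libraries lay close together, and the lowest Control value was 9.0 times the highest cKO value. The log2 fold change was -2.93 (SE 0.36, limma adjusted p = 0.000940), and the mean level fell from 15.3 ± 9.59 to 0.927 ± 0.0897 FPKM (SD, n = 3 each).

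*Tssk2* (ENSMUSG00000045521, chr16:17898637-17900024, 1 exon) starts 714 bases after the end of *Tssk1*. It read 32.4, 86.4 and 32.5 FPKM in Control (replicates 1 to 3), and the cKO libraries gave 0.321, 0.640 and 0.664 FPKM. Only 7, 13 and 14 fragments were counted in the cKO libraries, against 741, 1838 and 780 in Control. Again Control replicate 2 was the high library, and the groups were apart by 48.8 times between the lowest Control and the highest cKO value. The mean fell from 50.4 ± 31.1 to 0.541 ± 0.191 FPKM (SD, n = 3 each), which leaves 1.07% of the Control mean. Control replicate 2 raised that mean, and the share left would be larger without it. The log2 fold change was -4.91 (SE 0.37, limma adjusted p = 0.000103), the lowest of the 5, and 86 of the genes tested had a lower one.

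*Tssk6* (ENSMUSG00000047654, chr8:69902184-69903518, plus strand, 1 exon) encodes the kinase of chromatin condensation. It read 22.6, 53.8 and 25.1 FPKM in Control (replicates 1 to 3), and the cKO libraries gave 3.81, 2.51 and 1.38 FPKM. Its cKO libraries spread more widely than those of the other TSSK genes, with 80, 49 and 28 fragments, and cKO replicate 1 was the highest. The log2 fold change was -3.24 (SE 0.38, limma adjusted p = 0.000748), and the mean fell from 33.8 ± 17.3 to 2.57 ± 1.22 FPKM (SD, n = 3 each). The level left in cKO is uncertain, because the gene shares bases with genes on the other strand and the sources do not say whether counting used strand. In GENCODE M21 the first exon of *Ndufa13*, a subunit of respiratory complex I, covers 375 exon bases of *Tssk6*, and an exon of *Yjefn3* covers 15. *Ndufa13* averaged 55.2 ± 6.64 FPKM in Control and 59.6 ± 3.98 FPKM in cKO (SD, n = 3 each). *Yjefn3* was higher in cKO, at 7.09, 4.66 and 6.58 FPKM in replicates 1 to 3 against 1.31, 2.45 and 1.97 in Control (log2 fold change 1.29, SE 0.20, limma adjusted p = 0.00293). How many of the fragments given to *Tssk6* came from these genes was not tested.

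*Tssk3* (ENSMUSG00000000411, chr4:129489014-129491022, minus strand, 2 exons) encodes a short TSSK that is little more than a kinase domain. It read 17.1, 40.1 and 17.4 FPKM in Control (replicates 1 to 3), and the cKO libraries gave 0.895, 1.39 and 1.13 FPKM. Control replicate 2 was again the high library and the groups did not overlap. The log2 fold change was -3.49 (SE 0.32, limma adjusted p = 0.000234), with means of 24.9 ± 13.2 and 1.14 ± 0.246 FPKM (SD, n = 3 each).

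*Tssk4* (ENSMUSG00000007591, chr14:55650184-55652539, plus strand, 7 transcripts of 3 or 4 exons in GENCODE M21) encodes a kinase that phosphorylates the outer dense fibre protein ODF2 of the sperm tail. It read 6.54, 10.9 and 6.33 FPKM in Control (replicates 1 to 3), and the cKO libraries gave 0.371, 0.597 and 0.498 FPKM. Control replicate 2 stood out less here, at 1.70 times the mean of the other Control libraries, where *Tssk1* reached 2.69 times. The log2 fold change was -2.55 (SE 0.21, limma adjusted p = 0.000147), the smallest fall of the 5 on this scale, with means of 7.94 ± 2.60 and 0.488 ± 0.113 FPKM (SD, n = 3 each). The table gives a single level per gene, so the transcripts of *Tssk4* were not told apart.

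**Figure D1:**
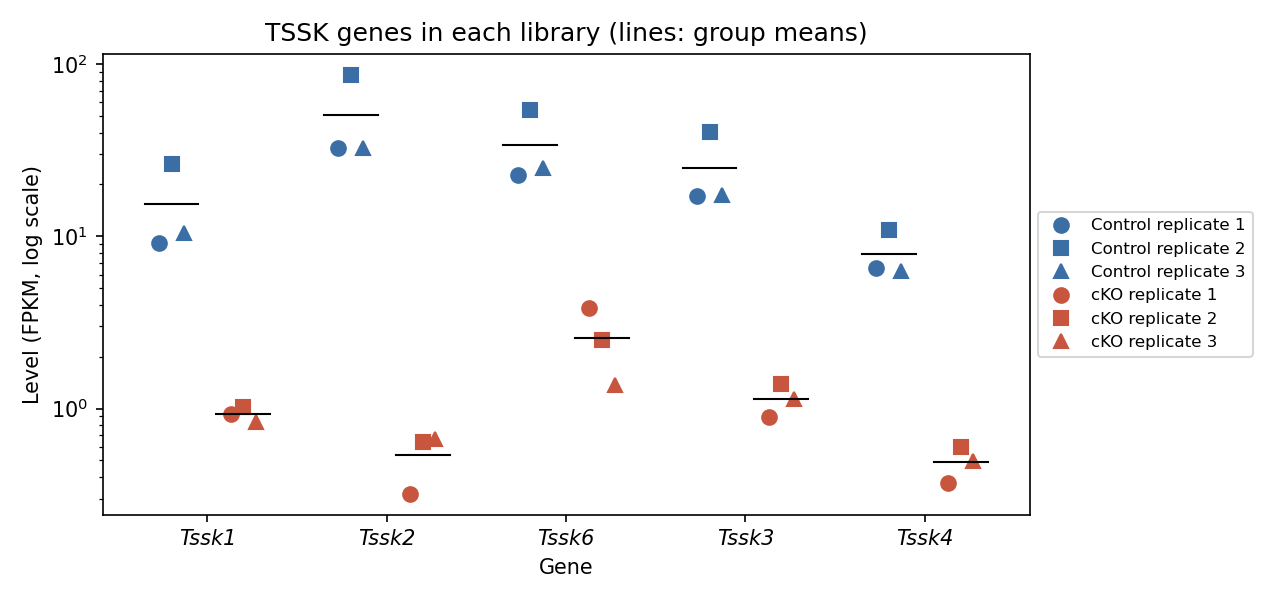
Level of each TSSK gene in FPKM (vertical log axis) in the 3 Control and the 3 cKO libraries, with the replicate given by the shape of the point and group means as lines. All Control points lie above all cKO points of a gene, and Control replicate 2 is the highest library for each gene.

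The order of the TSSK genes was the same in the 3 Control libraries and another in cKO, with the gene lengths of the table. By FPKM, a level per length, each Control library ran from *Tssk2* through *Tssk6*, *Tssk3* and *Tssk1* down to *Tssk4*. Because Control replicate 2 widens the spread, neighbouring means in this order, from 50.4 FPKM for *Tssk2* to 7.94 FPKM for *Tssk4*, differed by less than the larger of their SDs in each of the 4 steps. Shares of the summed FPKM of the 5 genes varied less between the Control libraries. *Tssk2* took 37.3 ± 2.18% of the sum in Control, *Tssk6* 25.9 ± 1.31%, *Tssk3* 19.0 ± 0.537%, *Tssk1* 11.3 ± 0.861% and *Tssk4* 6.46 ± 1.27% (SD, n = 3), and in each step of this order the difference exceeded both SDs. In cKO the sum itself was 6.33, 6.15 and 4.51 FPKM in replicates 1 to 3, against 87.9, 218 and 91.7 FPKM in Control. With these lengths *Tssk6* was the highest gene in each cKO library, with 60.3%, 40.8% and 30.6% of the sum, though its level there is uncertain, as said above. *Tssk2*, the highest in Control, took 5.07%, 10.4% and 14.7% in cKO and was the lowest or next to lowest of the 5. The other cKO levels lay between 0.371 and 1.39 FPKM, and the order of *Tssk3* and *Tssk1*, and of *Tssk2* and *Tssk4*, changed between cKO libraries.

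The place of *Tssk1* in this order depends on the length given to the gene. The table divides its fragments by 3700 bases, of which 1095 are coding, while the RefSeq model of the gene ends earlier and is 1451 bases long (chr16:17894203-17895653). If all its fragments lay in the RefSeq model, its level would be 23.3, 67.2 and 26.7 FPKM in the Control libraries and 2.37, 2.59 and 2.13 in cKO, a setting chosen after seeing the data. That would put it above *Tssk6* in each Control library and in cKO replicates 2 and 3, so that *Tssk6* would be the highest gene in cKO replicate 1 alone. Where its fragments lie was not analysed here.

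The sixth gene of the family, *Tssk5*, is not among the 5 chosen. It read 1.20, 1.51 and 1.37 FPKM in Control (replicates 1 to 3), and the cKO libraries gave 0.184, 0 and 0.222 FPKM, from 41, 48 and 49 fragments in Control and 6, 0 and 7 in cKO. The groups did not overlap. A count of 0 in cKO replicate 2 allows a level of up to 0.0988 FPKM (3 fragments), for counting error only. Its mean over the 6 libraries was 0.747 FPKM, below the minimum for the test. Among 35994 genes fitted with no minimum, its log2 fold change was -1.06 (SE 0.14, limma adjusted p = 0.00430).

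Control replicate 2 was the highest library for each of the 5 TSSK genes, and markers of late germ cells and of some somatic cells were high in it as well. The ratio of its level to the mean of Control replicates 1 and 3 ran from 1.70 for *Tssk4* to 2.69 for *Tssk1*, with a median of 2.32 over the 5 genes, against a median of 0.993 over 15437 genes. Over 9 elongating spermatid markers the same ratio had a median of 2.72 (from 2.38 to 3.65), and over 8 round spermatid markers 1.55 (from 1.0 to 2.75). Over 9 pachytene spermatocyte markers the median was 0.979 (from 0.703 to 2.34, the highest for *Pgk2*). Over 9 markers of early meiotic prophase it was 0.792 (from 0.660 to 1.04). Most somatic markers other than those of Sertoli cells were high in the same library. The ratio had a median of 3.53 over the 5 Leydig cell markers (from 1.03 to 9.09) and 2.75 over the 2 peritubular markers (from 2.32 to 3.18). Over 4 markers of macrophages and blood it was 2.56 (from 2.09 to 3.59). *Hbb-bs* is at 0 in Control replicates 1 and 3 and has no ratio. Over the 7 Sertoli cell markers the median was 0.729 (from 0.597 to 1.07). Several ratios outside the Sertoli cell list rest on few fragments. *Cyp11a1* had 4, 16 and 4 in Control replicates 1 to 3, and *Hsd3b1* had 10, 13 and 1. The part of any of these cells in the result was not tested. Without Control replicate 2 the TSSK genes were still lower in cKO at that threshold, with log2 fold changes of -2.48 for *Tssk1*, -4.45 for *Tssk2*, -2.86 for *Tssk6*, -3.10 for *Tssk3* and -2.32 for *Tssk4*.

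The germ cell label was checked with markers of germ cells, of their stages and of the somatic cells of the testis. *Stra8*, which gives the cells their label and is a gene of the entry into meiosis, read 262, 222 and 250 FPKM in the Control libraries and 242, 313 and 262 in cKO, and was not called. Of the 3 general germ cell markers, *Dazl* was higher in cKO (log2 fold change 0.43, SE 0.10, limma adjusted p = 0.0159) and *Ddx4* lower (-0.24, SE 0.08, adjusted p = 0.0480). These calls depended on the settings. Over 14 alternative settings, which include leaving out each library, that of *Ddx4* was lost in 9 (limma adjusted p from 0.0318 to 0.155) and that of *Dazl* in 2, with the replicate number as a block and without cKO replicate 3 (from 0.00265 to 0.0647). All libraries also held RNA of somatic cells, led by the Sertoli cell gene *Clu* at 32.6 to 79.3 FPKM. The 7 Sertoli cell markers summed to 72.1, 57.4 and 86.2 FPKM in the Control libraries and 119, 48.3 and 66.0 in cKO. *Rhox5* was the only one of them called, and it was higher in cKO (log2 fold change 0.72, SE 0.19, limma adjusted p = 0.0277). Its call was lost in 5 of 13 alternative settings (adjusted p from 0.00588 to 0.0875), with no minimum level and without Control replicate 1, Control replicate 2, cKO replicate 1 or cKO replicate 3. The 5 Leydig cell markers summed to 5.43, 14.0 and 2.95 FPKM in the Control libraries and 10.1, 6.34 and 10.7 in cKO. The 2 peritubular markers summed to 1.63, 4.02 and 1.09 FPKM in Control and 3.76, 3.46 and 3.94 in cKO. The 5 markers of macrophages and blood summed to 1.41, 5.96 and 2.36 FPKM in Control and 1.72, 3.36 and 2.86 in cKO. In each of these 3 lists Control replicate 2 had the highest sum of the 6 libraries, and none of their genes that were tested was called.

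The Control libraries held transcripts of stages that the label STRA8+ does not name. The elongating spermatid markers, which include the protamine and transition protein genes, summed to 2709, 8794 and 2645 FPKM in the Control libraries and to 5.21, 5.54 and 4.05 FPKM in cKO. The most abundant of them, *Tnp2*, read 708, 2648 and 775 FPKM in Control and 0.460, 0.863 and 0.356 in cKO. The round spermatid markers summed to 243, 417 and 224 FPKM in Control and to 5.49, 6.96 and 6.56 in cKO. All 9 elongating and all 8 round spermatid markers were called lower in cKO, with median log2 fold changes of -7.52 and -3.58, beside a median of -3.24 for the 5 TSSK genes and -0.01 over all genes tested. Except for *Prm1*, *Oaz3*, *Spaca1*, *Izumo1* and *Gapdhs*, these spermatid markers averaged below 1 FPKM in cKO. Those met the minimum only through the Control libraries, so they could enter the test only if lower in cKO. The call of 1 round spermatid marker, *Izumo1*, was lost without cKO replicate 1, cKO replicate 2 or cKO replicate 3 (limma adjusted p from 0.00820 to 0.0715 over 13 alternative settings). Of 9 pachytene spermatocyte markers, 8 were lower and none higher, with a median of -2.01. Among the lower ones, *Pgk2* and *Ccna1* averaged below 1 FPKM in cKO and had the same limit. *Ldhc*, the lactate dehydrogenase of germ cells, went from 387, 429 and 339 FPKM in Control to 0.685, 1.17 and 1.37 in cKO. Of 9 markers of early meiotic prophase 2 were lower (median -0.19), of 7 markers of differentiating spermatogonia 1 was lower (median 0.14), and of 8 markers of undifferentiated spermatogonia 1 was lower and 1 higher (median 0.09), where 22.2% of all genes tested were called lower. The difference between the lists was not tested. The higher gene was *Ret*, whose call was lost with the replicate number as a block and without Control replicate 3, cKO replicate 1 or cKO replicate 3 (limma adjusted p from 0.00275 to 0.0704 over 13 alternative settings). The part that a different make-up of stages has in the TSSK result was not tested.

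**Figure D2:**
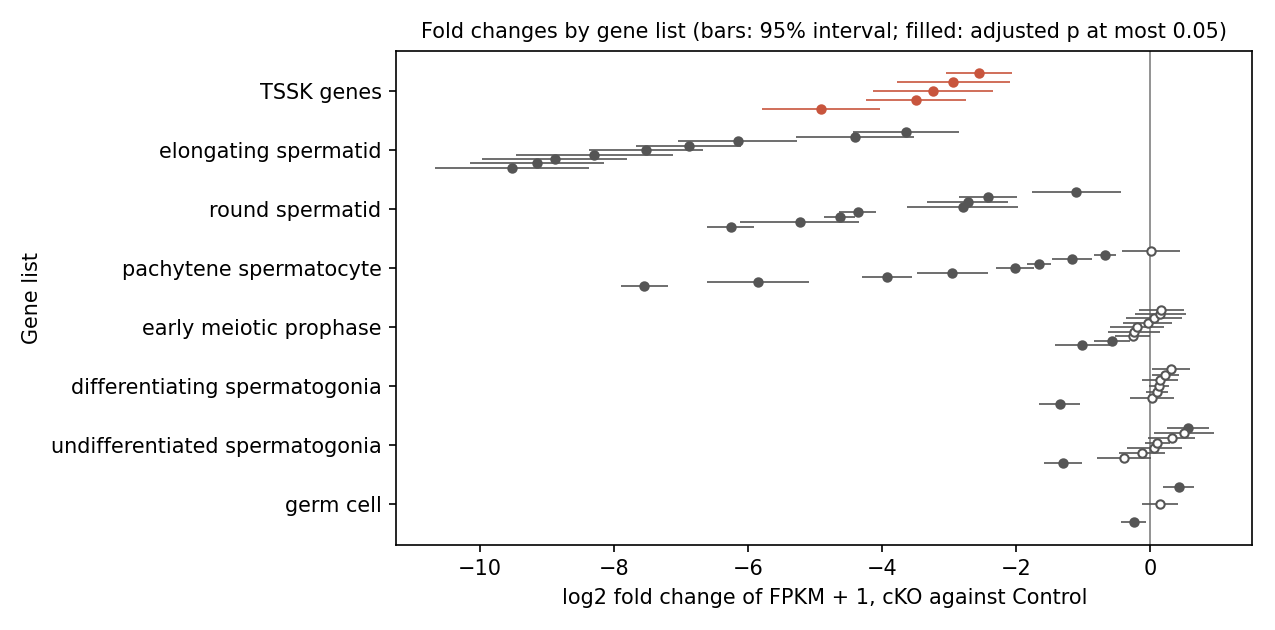
Log2 fold change, cKO against Control (horizontal axis, FPKM + 1), of the germ cell stage markers and the TSSK genes, 1 point a gene, with 95% intervals as bars and genes at an adjusted p of at most 0.05 filled. The TSSK genes lie between -4.91 and -2.55, within the range of the round spermatid markers, whose points run from -6.25 to -1.10, and within that of the pachytene spermatocyte markers, from -7.55 to 0.01.

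The TSSKs work with other proteins, and the genes of 11 partners, substrates and regulators were followed. Of these 6 were called lower in cKO, none higher, and 5 were not called, with a median log2 fold change of -0.43. Over all genes tested, 22.2% were called lower and 11.8% higher, and the difference was not tested. *Crem*, described below with the regulators of transcription, is among the 6 lower genes. *Tsks* and *Spag16*, also among them, averaged below 1 FPKM in cKO and could enter the test only if lower there. *Tsks*, the substrate of TSSK1 and TSSK2, read 36.2, 93.8 and 33.4 FPKM in the Control libraries and 0.592, 1.02 and 1.02 in cKO. It fell by 4.73 on the log2 scale (SE 0.38, limma adjusted p = 0.000130), and like the kinases it was highest in Control replicate 2. *Tsacc*, which encodes a co-chaperone that activates TSSKs, read 14.8, 18.4 and 12.0 FPKM in Control and 4.29, 2.89 and 3.67 in cKO, so more of it was left, and its log2 fold change was -1.79 (SE 0.18, limma adjusted p = 0.000354). The chaperones it works with did not pass the test. *Hsp90aa1* averaged 524 ± 64.7 and 546 ± 94.5 FPKM in Control and cKO, and *Hspa8* 225 ± 36.4 and 279 ± 34.5 FPKM (SD, n = 3 each).

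Substrates of TSSK kinases were also among the lower genes. *Odf2*, the sperm tail substrate of TSSK4, read 64.5, 104 and 58.5 FPKM in the Control libraries and 12.7, 12.0 and 12.7 in cKO (log2 fold change -2.46, SE 0.20, limma adjusted p = 0.000149). *Spag16*, an axoneme gene, read 4.10, 3.65 and 3.75 FPKM in Control and 0.113, 0.111 and 0.156 in cKO (log2 fold change -2.10, SE 0.13, adjusted p = 3.88e-05). Unlike the TSSK genes, *Spag16* was not highest in Control replicate 2. *Ppp1cc*, a protein phosphatase gene, had a smaller fall, from 98.6 ± 8.79 to 73.0 ± 2.18 FPKM (SD, n = 3 each, log2 fold change -0.43, SE 0.08, limma adjusted p = 0.00755). *Pdpk1* and *Creb1* were not called, at 24.8 ± 1.63 and 21.6 ± 3.14 FPKM and at 4.75 ± 0.154 and 5.05 ± 0.735 FPKM in Control and cKO (SD, n = 3 each).

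Related and other kinases were followed beside the TSSKs. The AMP-activated kinase relatives share their kinase domain type with TSSKs and are mostly expressed in many tissues. Of 16 genes, made up of such relatives and *Stk11*, an activator of kinases of this group, 3 were called lower, 2 higher and 11 not. That is near the 22.2% and 11.8% of all genes tested. Their log2 fold changes ran from -0.86 to 0.59, with a median of -0.06. The lower genes were *Brsk1* (-0.86, SE 0.15, limma adjusted p = 0.00557), *Stk11* (-0.39, SE 0.07, adjusted p = 0.00587) and *Mark2* (-0.28, SE 0.08, adjusted p = 0.0357). The higher genes were *Melk* (0.59, SE 0.08, adjusted p = 0.00163) and *Sik1* (0.52, SE 0.11, adjusted p = 0.0123). Over 14 alternative settings the call of *Mark2* was lost in 9 (limma adjusted p from 0.0338 to 0.162) and that of *Sik1* without cKO replicate 3 (adjusted p = 0.0513, in a range from 0.00387 to 0.0513). Of 10 other protein kinase genes of germ cells, 4 were lower, none higher and 6 not called, with a median of -0.26. The largest fall among them was that of *Mak*, a kinase gene of meiotic and later germ cells, which read 4.87, 6.57 and 4.42 FPKM in the Control libraries and 0.486, 0.630 and 0.745 in cKO (log2 fold change -1.94, SE 0.16, adjusted p = 0.000166). Each TSSK gene had a lower log2 fold change than each of these 26 genes, and the difference between them was not tested. Among the called genes of these lists, *Mak* and *Hipk4* averaged below 1 FPKM in cKO and could enter the test only if lower there.

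Transcription in late spermatocytes and spermatids depends on a set of known regulators, of which 8 were followed. In cKO 6 were called lower, 1 higher and 1 not, with a median log2 fold change of -0.95. The shares over all genes tested were 22.2% lower and 11.8% higher, and the difference was not tested. *Crem* is also in the list of partners, and *Tbpl1* and *Mybl1* are also among the pachytene spermatocyte markers. *Crem*, the cAMP-response modulator of spermatids, read 9.06, 9.34 and 8.48 FPKM in the Control libraries and 3.09, 3.88 and 3.47 in cKO (log2 fold change -1.16, SE 0.10, limma adjusted p = 0.000221). Its coactivator gene *Fhl5* read 18.6, 58.4 and 19.3 FPKM in Control and 0, 0.0583 and 0.0562 in cKO (log2 fold change -4.79, SE 0.41, adjusted p = 0.000182). At these cKO levels *Fhl5* could enter the test only if it was lower in cKO. *Rfx2*, a regulator of cilia and tail genes, went from 17.0, 16.2 and 15.1 FPKM to 4.76, 3.97 and 4.32 (log2 fold change -1.68, SE 0.09, adjusted p = 2.69e-05). *Sox30* read 19.4, 33.6 and 18.1 FPKM in Control and 6.24, 4.06 and 4.13 in cKO (log2 fold change -2.05, SE 0.25, adjusted p = 0.00102). *Taf7l* was the gene called higher (0.49, SE 0.10, adjusted p = 0.0120, and from 0.00209 to 0.0518 over 14 alternative settings, with the call lost when the replicate number was a block), and *Mybl1* was not called, at 19.1 ± 3.72 and 19.3 ± 3.91 FPKM in Control and cKO (SD, n = 3 each).

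Of the genes next to the TSSK genes or overlapping them, other than the TSSK genes themselves, 1 was called lower in cKO. Called higher were *Yjefn3*, described above with *Tssk6*, and *Cilp2* and *Gatad2a*, all of them beside or overlapping *Tssk6*. Tested and not called were *Ndufa13*, which overlaps *Tssk6* too, and *Bsdc1*, *Dgcr2*, *Ess2*, *Tm9sf1* and *Mdp1*. Among all genes tested, 22.2% were called lower and 11.8% higher. The lower gene was *Fam229a*, which starts 167 bases from the start of *Tssk3* and runs the other way (chr4:129491190-129491956, plus strand). It read 37.8, 113 and 39.6 FPKM in the Control libraries and 2.10, 2.25 and 4.23 in cKO (log2 fold change -3.91, SE 0.43, limma adjusted p = 0.000611), again with Control replicate 2 as the high library. On the other side of *Tssk3*, *Bsdc1* averaged 11.8 ± 1.03 and 11.6 ± 0.708 FPKM in Control and cKO (SD, n = 3 each) and was not called. *Dgcr2*, which spans *Tssk1* on the other strand and begins 74 bases from *Tssk2*, averaged 14.8 ± 0.809 and 12.5 ± 1.44 FPKM (SD, n = 3 each) and was not called. A single exon of 1 of its transcripts covers 63 bases of *Tssk1*. Whether counting kept fragments from this stretch apart is not known, because the use of strand is not given. *Gm20518*, the next gene on that side, averaged 0.396 and 0.310 FPKM and was not tested. *Ess2*, 684 bases after *Tssk2*, and *Tm9sf1* and *Mdp1* beside *Tssk4*, were not called. On the sides of *Tssk6*, *Cilp2* (log2 fold change 1.11, SE 0.18, adjusted p = 0.00343) and *Gatad2a* (0.27, SE 0.07, adjusted p = 0.0205) were higher in cKO, though the call of *Gatad2a* was lost in 6 of 14 alternative settings (from 0.00883 to 0.0844).

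The members share sequence to different degrees. Between the coding sequences of *Tssk1* and *Tssk2*, 853 of 1053 paired bases were identical (81.0%), with a longest identical run of 113 bases. The other 9 pairs of TSSK genes ranged from 58.0% for *Tssk4* and *Tssk6* to 63.4% for *Tssk3* and *Tssk4*. Reads could be divided between *Tssk1* and *Tssk2* at few places, since 25 of the 100-base windows of *Tssk2* (1.94%) also occur in *Tssk1* and in no other gene. No 100-base window of *Tssk3* or *Tssk4* occurs in a transcript of another gene. Of the windows of *Tssk6*, 276 (22.3%) lie in the antisense exon of *Ndufa13*. The coding sequences were 365 codons long in *Tssk1*, 358 in *Tssk2*, 338 in the longest form of *Tssk4*, 273 in *Tssk6* and 268 in *Tssk3*.

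The promoters of the 5 genes were compared as a description, and shared control of the genes was not tested. RefSeq promoters (GRCm38.p6, 250 bases before to 50 after the start) were found for all 5 genes. The start they use equals that in the table for *Tssk2*, *Tssk4* and *Tssk6* and lies 20 bases before it for *Tssk1*. For *Tssk3* it lies 252 bases after it, so the whole *Tssk3* window is inside the gene of the table, and the bases before that gene were not searched. The RefSeq gene models reach farther than these starts for *Tssk3*, to chr4:129491730 and into *Fam229a*, and for *Tssk4*, to chr14:55643651, and the bases before those ends were not searched either. Of all pairs, those of *Tssk1* and *Tssk2* gave the longest aligned stretch, 41 identical bases in 52 aligned columns just before the starts of the genes. The stretch lies at chr16:17894150-17894201 for *Tssk1* and at chr16:17898574-17898622 for *Tssk2*, both on the plus strand and shown 5′ to 3′, with the bases that are identical in the alignment in capitals.
Tssk1: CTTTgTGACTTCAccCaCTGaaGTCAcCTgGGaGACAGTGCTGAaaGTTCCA
Tssk2: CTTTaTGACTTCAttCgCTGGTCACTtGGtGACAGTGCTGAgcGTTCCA

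A cAMP-response element, the site bound by CREM and CREB1, is TGACGTCA, and its shorter form is TGACG. Neither was found on either strand of the promoters of *Tssk1*, *Tssk2*, *Tssk3* and *Tssk4*. The full element is in 1.79% of the 32851 promoters of the table and the short form in 20.8%. The *Tssk6* promoter holds TGACG, 73 bases before the start, shown in capitals with its surroundings (chr8:69902099-69902127, plus strand).
Tssk6: cccaaggccgagTGACGcccgcagtcact

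Other letters were searched for on both strands. The TATA box TATAAA, held by 13.6% of all promoters, is in none of the 5 windows. A part of the X-box bound by RFX factors, GTTGCC, held by 12.5% of all promoters, is in none of them either. The CCAAT box, held by 37.4%, is in the windows of *Tssk3* and *Tssk4*. The GC box GGGCGG, held by 35.7%, is in that of *Tssk6*. A match is a description of letters and not a site, and the absence of one says only that these letters are not in the window.

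The genes most like the TSSK genes were found by their log2(FPKM + 1) levels, centred on each gene's mean over the 6 libraries, among 12315 protein-coding genes. The measure was the root mean square difference from the mean profile of the 5 TSSK genes, and *Tssk3* lay closest to that mean among the members (0.09) and *Tssk2* farthest (0.76). The 8 nearest genes were *Ankef1* (0.07), *St6galnac2* (0.08), *Ms4a5* (0.09), *Plcz1* (0.10), *Prss58* (0.11), *1700001K19Rik* (0.11), *Gpd2* (0.11) and *Bcl2l14* (0.11). *Ankef1* read 7.93, 20.8 and 8.33 FPKM in the Control libraries and 0.230, 0.228 and 0.174 in cKO. *Plcz1*, the phospholipase that sperm bring into the egg, read 6.48, 19.2 and 8.18 FPKM in Control and is listed at 0 in the 3 cKO libraries. For single members, *Tssk1* lay nearest to *Hspa1l* (0.06) and *Ttll8* (0.08), and *Tssk2* to *Tsks* (0.10) and *Fam71f2* (0.10). *Tssk3* lay nearest to *Cabyr* (0.09) and *1700001C02Rik* (0.10), *Tssk4* to *Gm3676* (0.09) and *Spa17* (0.09), and *Tssk6*, with its uneven cKO libraries, to *Theg* (0.17) and *Cfap126* (0.22).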

How the data were processed

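RNA of 6 libraries was sequenced. The authors deposited FPKM, 1 column a library, for 54532 genes with gene length and coordinates. The submitters' processing notes name HISAT2 2.0.5 and mm10. The counting tool, the use of strand and the read length are not given in the sources used here. Groups and replicate numbers came from the labels. Fragments were recovered as FPKM times length in steps of 1 fragment.

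Only genes averaging 1 FPKM or more across libraries were fitted, as log2(FPKM + 1), with limma 3.58.1 in R 4.3.3 (lmFit, then eBayes using an intensity trend), no covariates, and Benjamini-Hochberg adjustment with a threshold of 0.05. The fit was tested on simulated data. Alternatives changed the pseudocount, the filter, the scaling, the test and the libraries used. Gene models and coding sequences came from GENCODE M21, whose coordinates of the 5 genes equal those in the table, and promoters from RefSeq.

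The genes named are the members, the genes of the lists, protein-coding neighbours and overlapping genes of the members, the 8 genes nearest to the mean profile and the 2 nearest to each member. Members and lists were chosen with earlier results of these data known.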

Additional observations from a re-analysis of the deposited data

How the results depend on the processing

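The 5 TSSK genes were called lower with a pseudocount of 0.1, without a filter, under every scaling tried (median of ratios, quantile normalization and limma-voom on recovered fragments), without the intensity trend, and without each library in turn. With a minimum mean of 5 FPKM, *Tssk4* was not tested and the other 4 were called lower. The highest adjusted p of a TSSK gene over these settings was 0.00618, for *Tssk1*. Without 1 library at a time, the log2 fold change ranged from -3.20 to -2.48 for *Tssk1*, from -5.14 to -4.45 for *Tssk2*, from -3.48 to -2.86 for *Tssk6*, from -3.69 to -3.10 for *Tssk3* and from -2.68 to -2.32 for *Tssk4*.

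The counts over all genes moved more. With a minimum of 5 FPKM, 1950 genes were called lower (of 8929 tested, which is why there are fewer). Without 1 library at a time, 2763 to 3202 genes were called lower and 965 to 1752 higher. The count of higher genes fell by over 1.5 times without Control replicate 1 (1065), Control replicate 3 (1082), cKO replicate 1 (1178) or cKO replicate 3 (965), but not without Control replicate 2 (1752) or cKO replicate 2 (1269), and the cause was not tested. Quantile normalization moved the median of all genes by 0.22 on the log2 scale and called 5164 genes higher and 2527 lower, so that 32.9% of the calls were lower, against 65.4% as deposited; the cause was not tested. All TSSK genes were called lower under it too.

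No source says that libraries of the same number were paired. Their deviations from the group means correlated at -0.00138, -0.111 and 0.0161 for pairs 1 to 3 over the genes tested. With the replicate number as a block, 2870 genes were called lower and 891 higher, and the 5 TSSK genes were called lower.

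At 7 to 80 fragments a TSSK gene in a cKO library, counting error limits the order of the genes within cKO. With the RefSeq length, an alternative chosen after seeing the data, the mean of *Tssk1* was 39.1 FPKM in Control and 2.36 in cKO.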
